A study of Homo sapiens with 5 samples.

Results

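The genes described here encode the enzymes that write, bind and remove histone acetylation: the acetyltransferases EP300, CREBBP, KAT2A and KAT2B, the bromodomain proteins BRD2 and BRD3, and the deacetylases HDAC1, HDAC2 and HDAC3. Their H3K27ac peaks were taken as all peaks of the deposited table whose center lay within 5 kb of an annotated transcription start site (TSS) of a member in GENCODE release 44. All 9 genes had such a peak, and 11 of the 20087 peaks in the table met the rule. A single peak was found for 7 genes, while BRD2 and HDAC1 had 2 peaks each. Of all 20020 protein-coding gene names in the annotation, 12403 had a peak within this distance.

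H3K27ac was measured by ChIP-seq in HCT116, a human colorectal carcinoma cell line. All cells were the derivative HCT116 CMV-osTIR1 RAD21-mAC, which expresses the auxin receptor osTIR1 and carries a degron tag on the cohesin subunit RAD21, and all were kept in 0.1% DMSO for 6 h. The 2 IFN-β libraries came from cells to which IFN-β was then added at 1000 unit/ml for 1 h (60 min in their labels), and the 2 control libraries from cells not treated further, labelled 0 min, so the treatment and this hour of culture cannot be told apart. A further 1 input library served the authors as background. The labels do not say whether libraries of a group came from separate cultures.

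Acetyltransferases transfer acetyl groups to lysines of histone tails, bromodomains bind the acetylated lysines, and deacetylases take the acetyl groups off again. EP300 and CREBBP, a pair of closely related coactivators, are the main enzymes that acetylate lysine 27 of histone H3, the mark measured here, and they are recruited by many transcription factors. Binding of IFN-β to its receptor leads to transcription of antiviral genes, many of which carry an interferon-sensitive response element (ISRE). The question asked of the members was whether the acetylation machinery's own regulatory regions changed acetylation during this response.

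The deposited table gives a log2 signal per peak, which is the log2 of the mean normalized reads over the 2 libraries of a group, and no value per library. A difference below is the log2 signal with IFN-β minus that of the control group. Since the spread between libraries is not in the table, no test was made, and each value carries a 95% interval that covers counting error only, derived from the reads that the normalized values stand for. Between 33 and 535 reads in the control libraries and between 25 and 356 in the IFN-β libraries lay behind the member peaks. Most peaks in the table were lower with IFN-β: the median difference was -0.69 over all peaks and -0.75 over the 11334 peaks within 1 kb of a protein-coding TSS (start peaks), and summed normalized reads were 540427 with IFN-β against 876825 in the control group. Differences of the members are therefore also given relative to these medians. Of 8 epithelial marker genes 7 had a peak, VIL1 being the exception, while 2 of 8 markers of other cell types (VIM and COL1A1) had a peak. Of all protein-coding gene names, 12403 of 20020 had one. Control log2 signals of the epithelial markers ran from 4.48 for CDH1 to 7.10 for EPCAM. They were 2.66 for VIM and 5.24 for COL1A1, so the levels of the 2 groups overlapped.

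The member peaks were chosen for lying near a start, and 10 of 11 centers were within 1 kb of an annotated TSS of the member. Not all of these starts are canonical, as the BRD2 peaks lay 1729 and 4204 bp downstream of the canonical TSS. The EP300 peak, on chromosome 22 from 41090735 to 41092695 in GRCh38, was the widest with 1960 bp, and its center lay 877 bp upstream of the gene's TSS. That of CREBBP, from 3880022 to 3881022 on chromosome 16, was centered in the untranslated part of exon 1, 191 bp downstream of the TSS. Peak centers fell in the coding part of exon 1 for KAT2A (chromosome 17, 42120602 to 42121602) and KAT2B (chromosome 3, 20040010 to 20041010), which are members of a family of acetyltransferases that work within the SAGA and ATAC coactivator complexes. BRD3 had its peak on chromosome 9 from 134067047 to 134068047, centered in intron 1 at 479 bp from the TSS. The HDAC2 peak (chromosome 6, 113970436 to 113971436) was centered in the untranslated part of exon 1, and the HDAC3 peak (chromosome 5, 141636570 to 141637570) 221 bp upstream of the HDAC3 TSS.

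The genes with a pair of peaks differ in what the second peak is. Both BRD2 peaks lie within the gene on chromosome 6, the first from 32969823 to 32970823 in intron 1 of the canonical transcript and the second from 32972298 to 32973298 in the untranslated part of exon 2. Each is centered on a different annotated BRD2 start, at 77 and 68 bp, and on lncRNA starts at 91 and 55 bp. For HDAC1, the peak from 32291176 to 32292176 on chromosome 1 lay 407 bp upstream of the canonical TSS. The other, from 32335396 to 32336396, met the rule through the start of a retained-intron transcript at 4360 bp and was centered 337 bp from the TSS of MARCKSL1, a neighboring protein-coding gene. In all, 6 of the 11 member peaks had the start of another annotated gene within 1 kb of the center, a count not set against that over all peaks. For the HDAC3 peak that gene was RELL2, whose TSS at 58 bp is nearer than that of HDAC3, and for the HDAC2 peak it was the lncRNA HDAC2-AS2 at 559 bp. The signal of such a peak cannot be divided between the genes that share it.

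**Figure D1:**
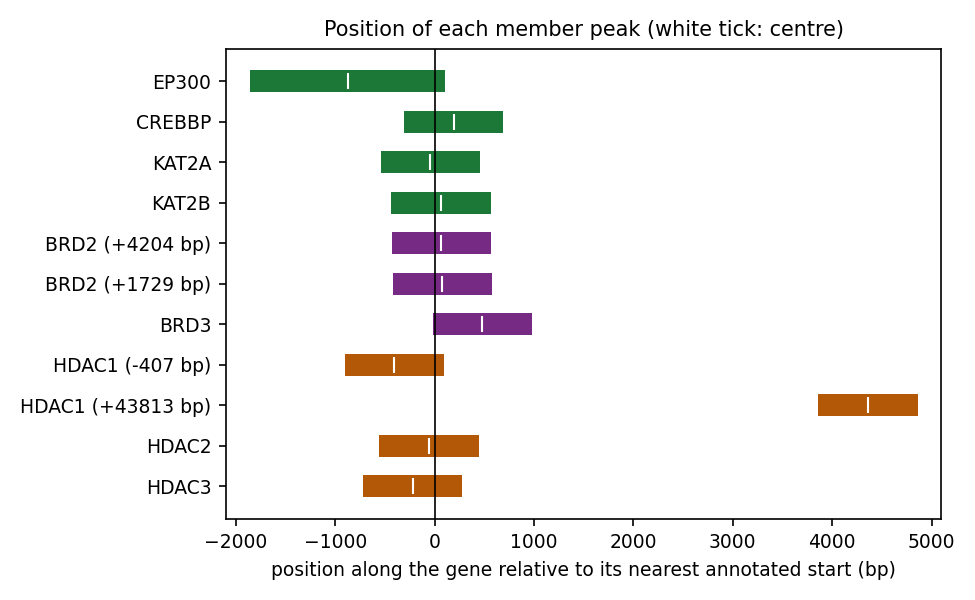
Position of the 11 member peaks along their genes, in bp from the nearest annotated TSS of that gene (vertical line). Bars span the peak and white ticks mark its center; for BRD2 and HDAC1 the distance to the canonical TSS is in the label. All but the peak at the MARCKSL1 side of HDAC1 lie at a start, and the EP300 peak extends farthest upstream.

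The promoters of 5 members are shown because their peaks cover nearly all of the 250 bases upstream of the RefSeq start without crossing more than 9 bases of an annotated exon. They are read 5′ to 3′ toward the gene from RefSeq on GRCh38.p14. Capitals mark matches, on either strand, to any of the 9 motifs searched, here the GC box (GGGCGG) and the NF-Y site (CCAAT), and neighboring GC boxes can overlap.
CREBBP, chr16:3880714-3880963, minus strand: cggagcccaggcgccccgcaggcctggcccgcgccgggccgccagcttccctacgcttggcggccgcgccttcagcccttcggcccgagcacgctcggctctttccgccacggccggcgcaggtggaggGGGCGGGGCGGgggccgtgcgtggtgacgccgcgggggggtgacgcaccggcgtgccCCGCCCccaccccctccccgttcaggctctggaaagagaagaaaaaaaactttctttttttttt
KAT2A, chr17:42121368-42121617, minus strand: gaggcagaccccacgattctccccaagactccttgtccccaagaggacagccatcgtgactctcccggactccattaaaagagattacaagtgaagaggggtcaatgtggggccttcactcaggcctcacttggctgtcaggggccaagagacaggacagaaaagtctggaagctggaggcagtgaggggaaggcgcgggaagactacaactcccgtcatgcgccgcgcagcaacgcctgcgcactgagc
KAT2B, chr3:20040196-20040445, plus strand: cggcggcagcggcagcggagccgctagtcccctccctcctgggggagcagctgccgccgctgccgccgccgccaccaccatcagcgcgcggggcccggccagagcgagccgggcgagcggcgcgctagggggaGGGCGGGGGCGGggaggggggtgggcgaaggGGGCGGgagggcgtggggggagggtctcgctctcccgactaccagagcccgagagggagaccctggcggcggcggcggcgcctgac
HDAC1, chr1:32291833-32292082, plus strand: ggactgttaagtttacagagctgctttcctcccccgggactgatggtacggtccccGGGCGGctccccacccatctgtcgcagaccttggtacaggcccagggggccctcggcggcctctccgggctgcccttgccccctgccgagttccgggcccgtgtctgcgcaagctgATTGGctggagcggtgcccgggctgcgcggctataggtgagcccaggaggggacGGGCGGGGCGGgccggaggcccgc
HDAC2, chr6:113971149-113971398, minus strand: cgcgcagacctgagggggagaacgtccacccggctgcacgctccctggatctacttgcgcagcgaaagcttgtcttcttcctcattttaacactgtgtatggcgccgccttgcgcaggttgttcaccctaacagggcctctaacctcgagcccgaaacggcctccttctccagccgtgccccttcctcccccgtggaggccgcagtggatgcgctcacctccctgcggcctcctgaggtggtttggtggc
The GC box, which is bound by SP1 and related factors, occurred 3 times each in the windows of CREBBP, KAT2B and HDAC1 and had no match in those of KAT2A and HDAC2. Over all 35116 RefSeq windows of this length, 42.6% held it. The GC content of the windows ran from 58.8% for KAT2A to 80.8% for KAT2B. The HDAC1 window also held CCAAT, as did 32.0% of all windows.

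Over the wider sequence within 500 bp of each peak center, all 11 member peaks contained a GC box, compared with 67.3% of all peaks and 90.8% of start peaks. The ISRE core (GAAA, any 2 bases, GAAA) was found in 1 of the 11, the upstream HDAC1 peak, against 11.6% of all peaks and 8.66% of start peaks. It lies 479 bp upstream of the HDAC1 TSS and is shown with 10 bases on either side, in the gene's direction and with the match in capitals. The same peak held the only match among members to TTCNNNGAA, the core of the gamma-activated site (GAS), found in 21.8% of all peaks and 17.8% of start peaks. The BRD2 peak in intron 1 held an AP-1 site (TGAGTCA or TGACTCA), found in 27.3% of all peaks and 11.2% of start peaks.
HDAC1 ISRE core, chr1:32291590-32291619: attagctttcTTTCCCTTTCttgtcggttt
HDAC1 GAS core, chr1:32291438-32291466: ctttgaataaTTCACAGAAgtctgaactt
BRD2 AP-1 site, chr6:32969982-32970008: gcctccctggTGACTCAtgtgggggaa
The letters of CRE (TGACGTCA), E-box (CACGTG), ETS (CCGGAAGT) and NRF1 (GCGC on both sides of AT) motifs were not present in these windows of any member. They were found in 2.79%, 17.9%, 6.99% and 1.96% of all peaks and in 3.98%, 21.1%, 10.6% and 2.96% of start peaks, in the same order. Member peaks were rich in GC, with a median of 69.0% against 64.2% for start peaks and 58.1% for all peaks, and 3 of the 11 lay below the median of start peaks. The observed over expected number of CpG dinucleotides had a median of 0.84 in member peaks, 0.78 in start peaks and 0.66 in all peaks.

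In unstimulated cells the members differed widely in H3K27ac. Per length, the intron 1 peak of BRD2 was highest at 223 normalized reads per kb (95% counting interval 204 to 243), above 99.8% of all peaks. BRD2 and BRD3 belong to the BET family, whose paired bromodomains bind acetylated histone H4. The writers of H3K27ac came next, CREBBP with 124 reads per kb (110 to 139) and EP300 with 119 (110 to 130), and these neighbors did not differ beyond counting error. HDAC2 followed with 84.4 (73.0 to 97.3), then BRD3 with 66.3 (56.0 to 77.5). The peak upstream of HDAC1 had 45.6 (37.2 to 55.1) and that beside MARCKSL1 55.7 (46.3 to 66.1). The lowest levels belonged to the second BRD2 peak at 35.0 (27.8 to 43.6), KAT2A at 31.1 (24.3 to 39.2), HDAC3 at 22.9 (17.0 to 29.8) and KAT2B at 14.5 (9.94 to 20.3). From HDAC2 downward, the interval of each peak overlapped that of the next.
Among start peaks alone, KAT2B stood above 11.8% and HDAC3 above 23.7% by this measure, while CREBBP stood above 95.4% and EP300 above 94.7%. Within the pairs of related enzymes, the order was CREBBP close to EP300, HDAC2 above HDAC1, and KAT2A above KAT2B. The intervals did not overlap for either of the latter pairs, whichever HDAC1 peak was taken. With IFN-β the first 4 places were taken by the same peaks, at 119 reads per kb (106 to 131) for BRD2, 69.1 (60.1 to 79.3) for CREBBP, 60.5 (54.3 to 67.1) for EP300 and 41.9 (34.9 to 49.9) for HDAC2. KAT2B was again lowest, at 8.34 (5.38 to 12.3).

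**Figure D2:**
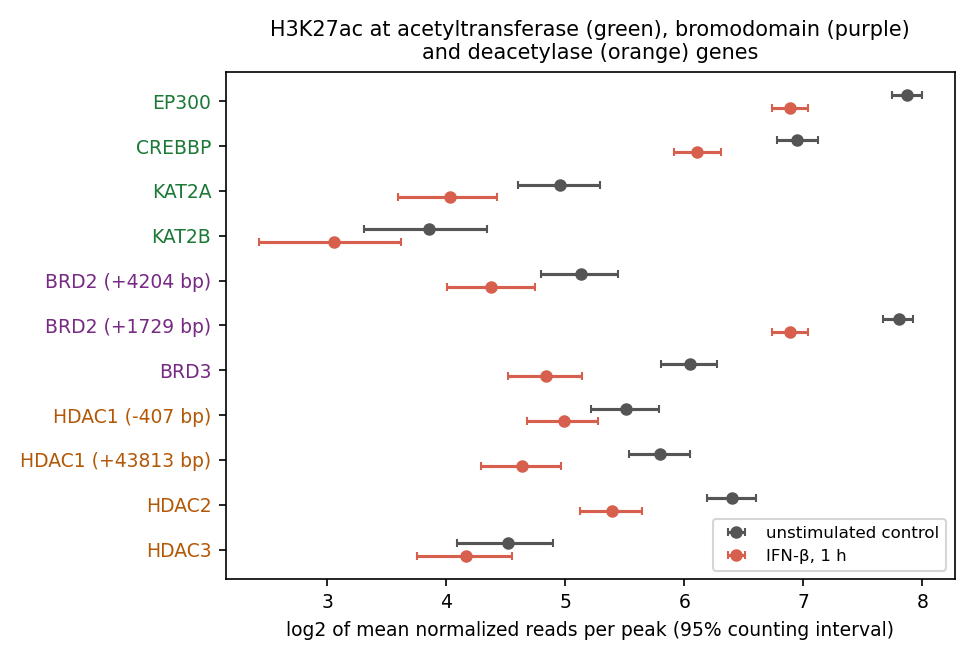
H3K27ac log2 signal (log2 of mean normalized reads per peak, not scaled to peak width) of the 11 member peaks in the control group (gray) and with IFN-β (red), each the authors' mean of 2 libraries. Bars are 95% Poisson counting intervals. All 11 peaks are lower with IFN-β, as are most peaks in the table. The pairs of intervals overlap for KAT2B, HDAC3 and the HDAC1 peak at -407 bp, and such overlap was not counted over all peaks.

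All 11 member peaks had a lower log2 signal with IFN-β than without, as did most peaks in the table: a difference above 0 was found in 5.93% of all peaks and in 2.81% of start peaks. The counting interval of the difference lay wholly below 0 in 10 of the 11 member peaks, against 65.9% of all peaks and 79.1% of start peaks. A difference below -1, that is more than 2-fold lower, was found in 3 of the 11, against 17.4% of all peaks and 18.1% of start peaks. By gene, with the peak nearest to a start, the median difference of the 9 members was -0.84, compared with -0.76 over 12403 protein-coding genes. The interval lay below 0 for 8 of the 9 genes, against 80.6% of all such genes, and a difference above the median of all peaks was found for 2 of the 9 (HDAC1 and HDAC3), against 39.3%. With the peak of highest control value or the summed reads of all its peaks for each gene, HDAC1 was at -1.16 or -0.84 and the count was 1. Pooling the reads of the 9 nearest peaks gave -0.90 (-1.01 to -0.78), against -0.70 for the summed signal of all peaks. That sum takes in the 8753 peaks that are not start peaks, with a median difference of -0.57 and a median GC content of 47.1%. No pooled value was computed for start peaks or for peaks of like GC content. The pooled value gives most weight to genes with many reads, such as EP300. Its interval holds no spread between genes or libraries, so the members are not replicates in it.

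Among the acetyltransferases, the log2 signal of EP300 was 7.87 in the control group and 6.89 with IFN-β, a difference of -0.98 (-1.18 to -0.79) and the narrowest interval of any member. CREBBP went from 6.95 to 6.11, a difference of -0.84 (-1.10 to -0.58). The intervals of these paralogs, which share most of their domains, overlapped. For KAT2A, the catalytic subunit of SAGA also known as GCN5, the values were 4.96 and 4.03, with a difference of -0.93 (-1.49 to -0.38). Its paralog KAT2B (PCAF) had 3.86 and 3.06, and its difference of -0.80 came with the widest interval, a ratio of 0.57 (0.33 to 1.00). The 4 differences spanned only -0.98 to -0.80. Pooled reads, most of them from EP300 and CREBBP, gave -0.93 (-1.07 to -0.78, counting error only).

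For the bromodomain genes, the BRD2 peak in intron 1 went from a log2 signal of 7.80 to 6.89, a difference of -0.91 (-1.11 to -0.71). The second BRD2 peak, which is nearest to a start, went from 5.13 to 4.38, with a difference of -0.75 (-1.24 to -0.25), equal to the median of start peaks. BRD3 had the lowest difference of any member, with log2 signals of 6.05 and 4.84 and a difference of -1.21 (-1.61 to -0.82), a ratio of 0.43. Its difference was above that of 7.08% of all peaks and 5.80% of start peaks.

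The deacetylases had the most widely spread differences, though the counting intervals of all their peaks overlapped one another. HDAC1 and HDAC2 are closely related catalytic subunits of the SIN3, NuRD and CoREST corepressor complexes, and HDAC3 is that of the NCOR complexes. HDAC2 had log2 signals of 6.40 and 5.39 and a difference of -1.01 (-1.35 to -0.68). At HDAC1, the upstream peak with the ISRE core went from 5.51 to 4.99, a difference of -0.52 (-0.94 to -0.11), while the peak beside MARCKSL1 went from 5.80 to 4.64, a difference of -1.16 (-1.59 to -0.73). The intervals of the HDAC1 peaks overlapped. HDAC3, at the start shared with RELL2, had the highest difference of all members, -0.35 (-0.92 to 0.24), with log2 signals of 4.52 and 4.17 from 52 and 54 reads. It was the only member peak whose interval reached above 0, and it overlapped the interval of BRD3 at the other end of the range.

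**Figure D3:**
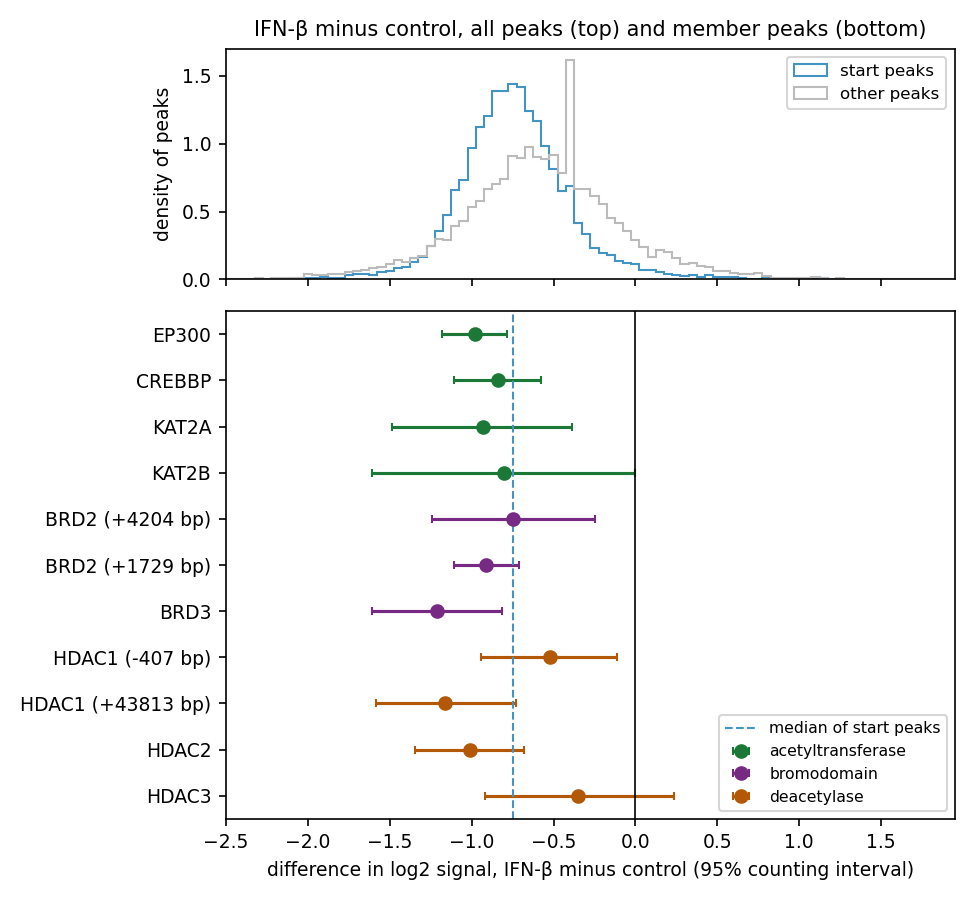
Top, density of the difference in log2 signal (IFN-β minus control) over start peaks (blue) and all other peaks (gray), with the few values beyond the axis not drawn; the gray spike comes from peaks at the lowest value in both groups. Bottom, the difference of each member peak with its 95% binomial counting interval, colored by role, with a solid line at 0 and a dashed line at the median of start peaks, -0.75. The intervals of EP300 and BRD3 lie below the dashed line and those of the other 9 peaks include it.

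Ranked among all peaks of the table, the differences of the member peaks stood above 7.08% (BRD3) to 82.3% (HDAC3). Only 2 of the 11 were above the median of all peaks, against 4562 of 11334 start peaks. Measured from the median of start peaks, the differences of the member peaks ran from -0.46 for BRD3 to 0.40 for HDAC3. The counting interval lay wholly below that median for 2 of the 11 peaks, EP300 and BRD3, and above it for 0, against 6.09% and 6.51% of start peaks. In the table, differences were lower the higher the GC content of the peak, with a median of -0.48 in the lowest and -0.82 in the highest of 10 equal parts of the peaks by GC content. Taking the median of the peaks in the same part as the reference, the interval lay wholly below it for 1 member peak, that in intron 1 of BRD2, and above it for 0, against 6.6% and 6.84% of all peaks. By this measure BRD3 was -0.39 and EP300 -0.18 from the medians of their parts, and HDAC3 was 0.45 above its own, where it exceeded 94.0% of the peaks. The median over the 9 genes was -0.02.

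**Figure D4:**
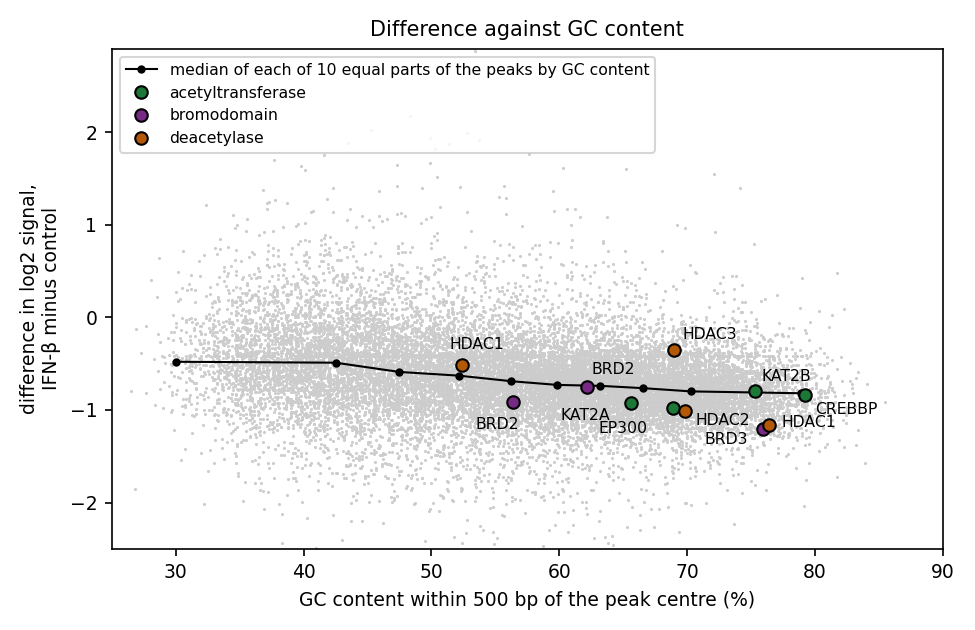
Difference in log2 signal (IFN-β minus control) of all peaks (gray points, a few beyond the axis not drawn) against GC content within 500 bp of the peak center. The black line joins the medians of 10 equal parts by GC content, which run from -0.48 to -0.82, and colored points are the member peaks; 8 of the 11 lie below the median of their part.

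Other genes of the acetylation machinery were described by lists of 92 genes in all, of which 91 had a peak within 5 kb of a start. Their median difference was -0.77, close to -0.76 for all protein-coding genes with a peak, and 14 of the 91 had a difference below -1, against 18.2% of such genes. Only HDAC8 was above 0, with 0.32 (-0.50 to 1.11) from log2 signals of 3.31 and 3.63. The subunits of SAGA and ATAC, in which KAT2A and KAT2B work, had a median of -0.83 (22 of 22 genes), from TADA1 at -1.09 to TAF12 at -0.45. The 9 further acetyltransferases had a median of -0.65, between KAT6B, a MYST family enzyme, at -1.09 and TAF1, the largest TFIID subunit, at -0.51. Other readers of acetylated lysine had a median of -0.74 (21 of 21), between YEATS4 at -1.09 and MLLT3 at -0.24, both of which bind through a YEATS domain.
The remaining zinc-dependent deacetylases, HDAC4 to HDAC11, had a median of -0.63 (8 of 8), and the lowest of them were HDAC4 and HDAC10 at -0.89 each. Sirtuins, which use NAD+ for deacetylation, had a median of -0.72 (6 of 7, SIRT4 having no peak), between the mitochondrial SIRT5 at -1.19 and SIRT2 at -0.16. Partners of HDAC1 and HDAC2 in corepressor complexes had a median of -0.79 (20 of 20). Among them ING2, a SIN3 subunit that binds methylated histone H3, had -1.57 (-2.14 to -1.03), the lowest difference of any gene in these lists, and SAP30 had -0.34. The 5 partners of HDAC3 had a median of -0.98, from TBL1XR1 at -1.15 to NCOR1 at -0.69. All of them were below HDAC3 itself, but so were 82.3% of all peaks. The counting interval of each partner overlapped that of HDAC3.

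A list of 16 interferon-stimulated genes served as a reference for a response in these libraries. Of these, 14 had a peak, with a median difference of 0.45, and 13 of the 14 were above 0, against 2.37% of protein-coding genes with a peak. IFI6 was highest at 1.94 (1.31 to 2.68), and the peak nearest to a start of ISG15 lowest at -0.53. The lowest of the other 13, named after its value was seen, was IFIT3 at 0.05 (-0.38 to 0.48). CMPK2 and RSAD2 share 1 peak, which is counted under both names, and the interval lay above 0 for 8 of the 14, against 0.347% of protein-coding genes with a peak.

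**Figure D5:**
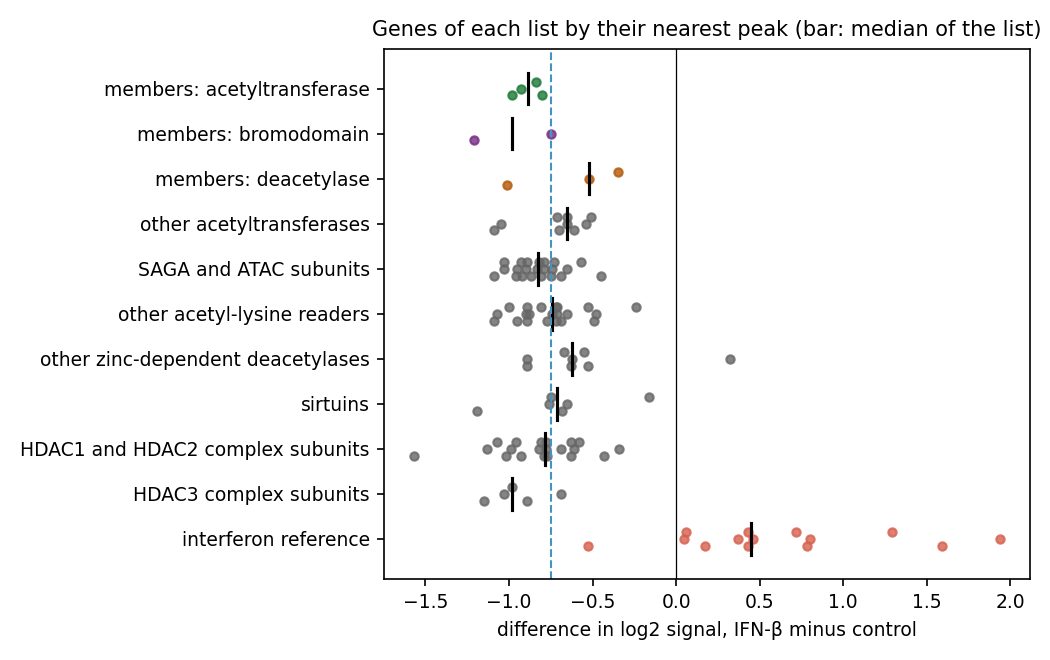
Difference in log2 signal (IFN-β minus control) of each gene by the peak nearest to its start, for the members by role, the other lists of acetylation genes (gray) and the interferon-stimulated genes (red). Black bars are list medians and the dashed line is the median of start peaks; apart from HDAC8, every acetylation gene lies below 0, whereas 13 of 14 interferon-stimulated genes lie above it.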

How the data were processed

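H3K27ac ChIP-seq libraries (2 with IFN-β, 2 controls) and 1 input were processed by the authors with fastp (0.19.3 in the submitters' processing notes), bowtie2 against GRCh38, MACS2, DiffBind and DESeq2. The deposited log2 columns hold the log2 of mean reads per peak over the libraries of a group, scaled by library size by the authors; the mean column equals the log2 of the averaged group values within 0.01. The table's fold-change, p-value and FDR columns are the authors' own comparison and were not used. Where a peak is given, its coordinates are those of the table.

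Relative library sizes were recovered from the steps between the lowest values (log2 signal up to 2, tolerance 0.0051). Sizes of 1.00 and 1.285 in the control group and 1.465 and 1.54 in the IFN-β group gave 99.5% and 99.2% of 650 and 1017 such values. Reads per group were the mean normalized reads multiplied by the summed sizes. Poisson (levels) and Clopper-Pearson (differences) 95% intervals cover counting error only, and take reads as independent and no input as subtracted. They were tested on simulated data that held counting error only, which cannot show how they behave under spread between libraries.

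Peaks were paired with all GENCODE release 44 transcript starts within 5 kb, and a gene was represented by the peak nearest to a start. Level order was set per kb of peak width. Sequence was read within 500 bp of peak centers with pysam 0.24.0 (samtools 1.23.1, Python 3.11.15, numpy 2.4.6, pandas 2.3.3, scipy 1.17.1, matplotlib 3.10.9). All 9 members matched RefSeq promoters. Named are the members and, of each list, the genes with the highest and lowest difference. The members and lists were chosen with earlier results of these data known. Alternatives changed the distance, the starts used, the peak that represents a gene, the scaling and a filter on low values.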

Additional observations from a re-analysis of the deposited data

How the results depend on the processing

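The number of member genes with a peak and of member peaks stayed within 1.5 times of the reported value with 1 kb or 10 kb in place of 5 kb and with canonical starts only, and the median difference over members kept its sign under all alternatives tried. The size of the differences depended on the scaling. Centring on the median of all peaks moved the member median to -0.15, scaling by the summed signal to -0.14, and centring on the median of the part of peaks with like GC content to -0.02. In the same order, the median became -0.20, -0.19 and -0.0925 for the acetyltransferases, -0.29, -0.28 and -0.20 for the bromodomain genes and 0.17, 0.18 and 0.11 for the deacetylases. The sign changed for the deacetylases because HDAC1 and HDAC3, by their nearest peaks, lay above each reference. KAT2B was also above the median of its GC part, by 0.02. The counting intervals of HDAC1 (-0.94 to -0.11) and HDAC3 (-0.92 to 0.24) included the median of all peaks, -0.69. Pooled reads gave -0.74 (-0.97 to -0.51) for the 3 deacetylases, which is below that median. For the nearest peaks of the 2 bromodomain genes they gave -1.03 (-1.33 to -0.72). This leaves out the BRD2 peak in intron 1, which had 509 control reads against 80 in the BRD2 peak used. Of the 9 genes, 2 lay above the median of all peaks by their nearest peak, but 1 when the peak with the highest control value or the summed reads of all peaks represented a gene, since HDAC1 then took in the peak beside MARCKSL1 and its difference became -1.16 and -0.84. No gene of the 7 other lists of acetylation genes had under 10 mean normalized reads in both groups. Leaving out such genes therefore removed none and could not test the medians of these lists. Leaving out each library in turn could not be run on group means, and the spread between libraries is not known for any comparison made here. Counting error was widest for peaks with few reads, such as KAT2B and HDAC3.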

Other observations

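Within the annotated spans of the members but beyond 5 kb of their starts, the table held 1 peak. It lies on chromosome 6 from 113995804 to 113997372, inside the annotated span of HDAC2, upstream of the canonical TSS and 595 bp from a start of the lncRNA HDAC2-AS2. Its log2 signal was 3.20 in the control group and 3.50 with IFN-β, a difference of 0.30 with a counting interval of -0.53 to 1.16 from 21 and 34 reads. Within 500 bp of its center, which leaves out the ends of this peak, the sequence held no ISRE core and had a GC content of 42.9%. The counting interval of the HDAC2 start peak, from -1.35 to -0.68, lay wholly below that of this peak. In the whole table, too, start peaks were lower, with a median difference of -0.75 against -0.57 for other peaks. Of the other peaks, 873 of 8753 were above 0. The acetyltransferase genes EP300 and CREBBP, which span long introns, had no such peak in the table.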
